A study of Mus musculus with 6 samples.

Results

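The comparison described here set EPC_acLDL, a mouse cell line selected for uptake of acetylated low density lipoprotein (acLDL), against EPC, the early line from which it was selected. Both lines came from the lung of athymic nude mice, are labelled as endothelial progenitor cells and were used at passage 3 to 6 in a mouse endothelial medium with fetal bovine serum. EPC was the cultured population of cells sorted from lung by surface markers. For EPC_acLDL, cells were given fluorescent acLDL, the positive ones were sorted, and these alone were plated again. Each line had 2 arrays. The same chip carried 2 arrays of EPC_Late, the line at passage 16 to 20, whose values are given beside those of the other lines where they help to place a gene. A gene is described if one of its probes was above background (detection p-value under 0.05) on each EPC array or on each EPC_acLDL array, which held for 2204 of 25697 probes (8.58%) and for 2010 gene symbols.

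Acetylated LDL is an LDL whose protein has been chemically modified. It is taken up by scavenger receptors, which are abundant on endothelial cells and macrophages, and carried to lysosomes, and its fluorescent form is a standard label for sorting endothelial cells. Endothelial progenitor cells are proliferating cells thought to give rise to the lining of blood vessels, and cultures of them can also hold cells with mesenchymal, contractile or blood cell traits.

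The MouseRef-8 v2.0 arrays read each transcript with 1 or more bead-bound oligonucleotides, the probes. The median deposited intensity of the 4 arrays lay between 304.6 and 345.2, and on each of them 2177 to 2365 probes were above background. Over the probes tested, the 2 arrays of EPC correlated at r = 0.989 and those of EPC_acLDL at r = 0.992, and an array of one line correlated with an array of the other at 0.979 to 0.980, all across probes, which are not independent. Many transcripts that nearly every cell makes were not seen: the probes for Gapdh, Vim, Fth1, Rplp0, Hspa8 and Tmsb4x were above background on none of the 4 arrays, while the brightest probes for Actb, Ubb and Ppia read about as high as the scale goes. A probe at background here therefore says nothing on whether its gene is transcribed. Probes of one gene also often disagreed: among the 2996 genes with exactly 2 probes, 389 had a probe above background on all 4 arrays and 37 had both, so that the other probe of a detected one was detected in 17.4% of cases, against 6.99% over all probes. Whether a fault in hybridization or in the pairing of probe names with values lies behind this was not tested. Such a fault would touch the name of any gene given here, and genes are named as the file names their probes. The labels do not say whether the 2 arrays of a line came from separate cultures, and the methods, which mention independent experiments run in duplicate, do not settle it, so p-values measure the spread between these arrays, which may be technical. With 1 line on each side and all arrays on one chip, the selection, the drift of a single culture and the position on the chip cannot be told apart.

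Of the probes above background in either line, 77 passed an adjusted p of 0.05 in limma (3.3% of the 2333 probes tested across the 3 lines). There were 45 higher in EPC_acLDL (1.93%) and 32 lower (1.37%), for 42 and 31 genes, and 30 of the 77 changed by at least 2-fold, as 16 higher and 14 lower. The split depends on the scaling: 114 were higher and 24 lower when arrays were only shifted to the same 75th percentile, and 261 and 24 without normalization. Under each of these, the same 11 of the 77 lost the call, all of them lower in EPC_acLDL, so that 45 of 45 higher but 21 of 32 lower calls held. Of the genes named below these were Efna5, Espl1, Copz2, Slc12a9, Rars2 and Rbfox2. In all 77, both EPC_acLDL arrays lay on one side of both EPC arrays. This separation is common, at 52.1% of the probes described and 50.8% of all probes tested. The median difference over all probes tested was 0.008 on the log2 scale, the median size of a difference among the probes described was 0.189, and the smallest difference that passed was 0.58. The first of these became 0.165 with the shift to the 75th percentile and 0.251 without normalization. Medians and counts of signs in the gene lists described below therefore depend on the scaling too. Of the 1797 probes above background on all 4 arrays, 36 were higher and 23 lower. The others were above background in only part of the arrays: 7 of 83 probes not above background on either EPC array were higher, and 8 of 42 not above background on either EPC_acLDL array were lower, a direction that the choice of probes sets in advance. Of the probes above background on 1 array of the dimmer line, 2 of 191 were higher and 1 of 91 was lower. At an unadjusted p below 0.05, 459 of the probes described passed.

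**Figure D1:**
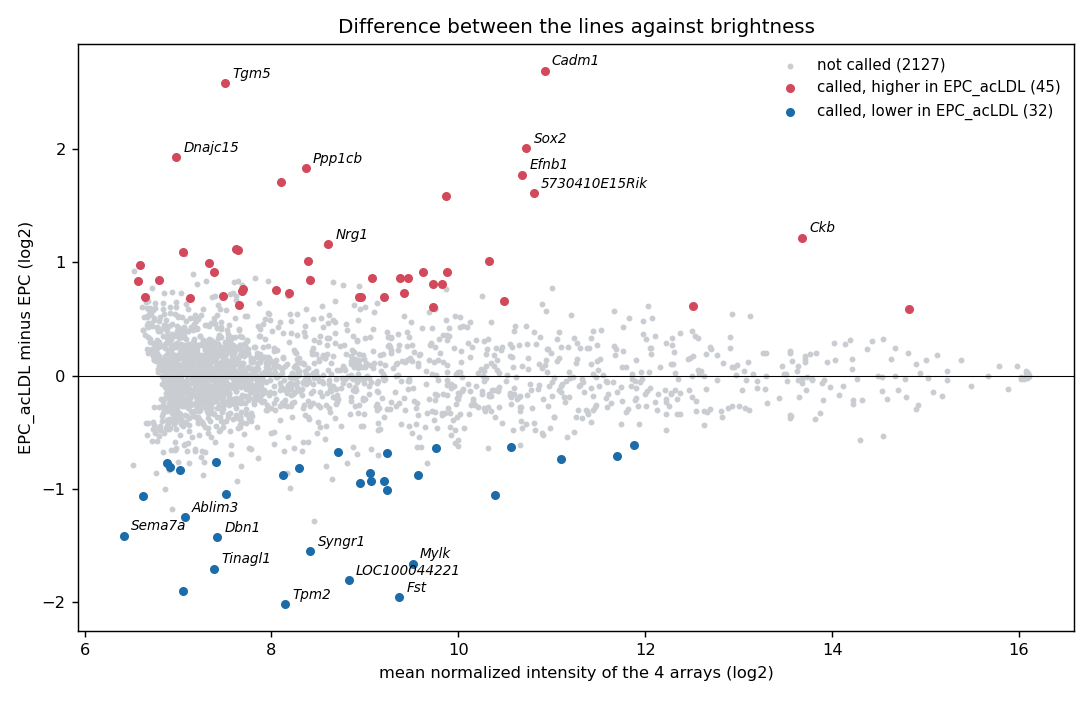
Each point is a probe above background in EPC or EPC_acLDL. The x axis is the mean normalized intensity of the 4 arrays and the y axis the difference EPC_acLDL minus EPC, both on the log2 scale. Red points (45) passed the test as higher in EPC_acLDL and blue points (32) as lower, and grey points did not pass. The called probes run from Sema7a near background to Hnrnpa2b1, and none of the 15 probes with an intensity above 60000 on all 4 arrays was called.

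The largest fitted increases were in an adhesion molecule, a transglutaminase and a transcription factor, and the place of the transglutaminase depends on the background correction. In what follows, values are normalized log2 intensities per array, differences are EPC_acLDL minus EPC by the labels of the arrays, and adjusted p-values are from limma with Benjamini-Hochberg adjustment. Called shares of gene lists are descriptions only. The lists were chosen with earlier results of these data known, so a share can be partly set by the choice of members. The study gives Sox2, Cadm1 and Ybx3 the opposite direction between these lines, so every higher and lower here rests on the labels of the arrays. Cadm1 (Igsf4a in the file), an immunoglobulin-like molecule that joins epithelial and other cells to each other, read 9.64 and 9.52 on the EPC arrays and 12.36 and 12.18 on the EPC_acLDL arrays. Its difference was 2.69 (SE 0.12, adjusted p = 0.000497), or 6.45-fold, far wider than the gap between arrays of one line. EPC_Late was at 12.48 on average, 0.21 above EPC_acLDL (adjusted p = 0.294). Tgm5, a transglutaminase that cross-links proteins of the cell envelope in epidermis, read 6.12 and 6.31 in EPC, where it was not above background, and 8.76 and 8.83 in EPC_acLDL. It was at least 3.90-fold higher in EPC_acLDL (adjusted p = 0.000497). EPC_Late lay between the other lines for Tgm5, with a mean of 7.59, and the other Tgm5 probes were at background. Fold sizes depend on the background correction, most of all near background: without it the fitted Tgm5 difference was 1.01 in place of 2.58, while that of Cadm1 was 2.25.

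Sox2, a transcription factor that keeps pluripotent and neural stem cells undifferentiated and is also used by airway epithelium, read 9.70 and 9.74 in EPC and 11.77 and 11.69 in EPC_acLDL. The deposited intensities were 1098 and 1126 in EPC against 4077 and 3913 in EPC_acLDL, so the lines had the same order before normalization. The difference was 2.01 (SE 0.11, adjusted p = 0.000956). Both EPC_acLDL arrays lay above both EPC arrays, and the mean in EPC_Late was higher still, at 12.39. A second Sox2 probe was not above background on any array. Of 41 stem cell genes on the array 4 were above background, and Sox2 alone passed (25.0% of probes, beside 3.3% of all tested). Pou5f1, which works with Sox2 in pluripotent cells, read 7.84 and 7.51 in EPC and 8.158 and 8.004 in EPC_acLDL (difference 0.41, adjusted p = 0.207), and Tbx3 and Msi2 differed by -0.23 and -0.20.

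Of the epithelial markers, 16 of 104 genes were above background, and Cadm1 and Tgm5 were the only ones that passed (12.5% of probes, beside 3.3% of all tested). Across the 11 probes of this list above background on all 4 arrays the median was -0.02. Cdh1, the adhesion protein of epithelial junctions, differed by 0.22 (adjusted p = 0.576), Tjp1 by -0.05 and Cldn7 by -0.73 (SE 0.37, adjusted p = 0.329). Krt8 and Krt18 were not above background on any of the 4 arrays. The summed intensity of those 11 probes was 7629.7 and 7784.2 in EPC and 13225.5 and 12652.0 in EPC_acLDL. Cadm1 alone accounted for 1056.96 and 996.883 of the EPC sums and for 6041.04 and 5385.25 of the EPC_acLDL sums. Of 28 markers of lung epithelium 2 were above background, Ager and Cldn18, and neither passed.

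**Figure D2:**
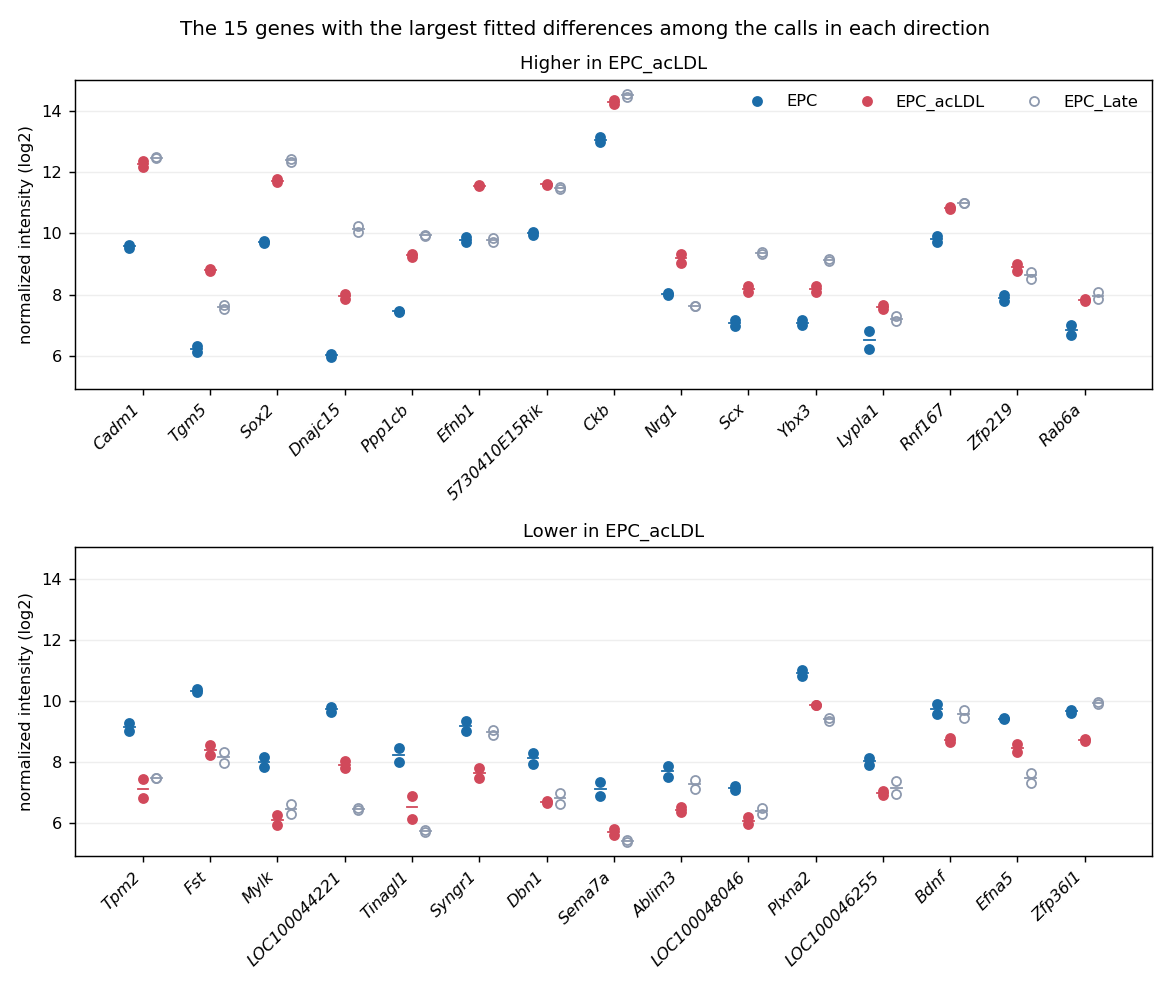
Normalized log2 intensity on each array for the 15 called genes with the largest fitted increase (top) and decrease (bottom) in EPC_acLDL, 1 probe per gene. Genes with only a bound (Tgm5, Dnajc15, Lypla1, the Mylk probe drawn, Dbn1, Sema7a, Ablim3 and LOC100048046) have no settled rank. Filled points are the 2 arrays of EPC (blue) and of EPC_acLDL (red), open points the 2 arrays of EPC_Late, and short lines the means. In each gene shown both EPC_acLDL arrays lie on the same side of both EPC arrays, while EPC_Late lies on either side of them.

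Tpm2 and Mylk, genes of actin and myosin contraction, were among the largest decreases. Tpm2, the beta-tropomyosin that lies along actin filaments of smooth muscle and other contractile cells, read 9.02 and 9.29 in EPC and 6.82 and 7.46 in EPC_acLDL. Its difference was -2.02 (SE 0.22, adjusted p = 0.0107), with the wider spread in EPC_acLDL. Without background correction it was -0.92. Its other probes were not above background. Mylk, the kinase that starts smooth muscle contraction by phosphorylating the myosin light chain, was lower with both of its probes. The brighter probe read 10.27 and 10.41 in EPC and 8.65 and 8.72 in EPC_acLDL, a difference of -1.66 (SE 0.12, adjusted p = 0.00164). The dimmer probe was not above background in EPC_acLDL and was at least 2.36-fold lower there (adjusted p = 0.00895). EPC_Late stood close to EPC_acLDL for Tpm2, at 0.33 above it (adjusted p = 0.374), and was 0.51 above it for the brighter Mylk probe (adjusted p = 0.0279).

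No other gene of the contractile list passed. Of 48 on the array 11 were above background, and Tpm2 and Mylk were the 2 that passed, with 3 of 17 probes (17.6%, beside 3.3% of all probes tested). The 15 probes above background on all 4 arrays had a median of -0.06 and were split into 6 with a positive and 9 with a negative difference. Acta2, the smooth muscle actin, differed by 0.04 (SE 0.14, adjusted p = 0.903), Des, the intermediate filament of muscle, by 0.31 (adjusted p = 0.276), Tpm3 by 0.32 (adjusted p = 0.244) and Actn1 by -0.43 (adjusted p = 0.0929). Actn4, a crosslinker of actin filaments, had probes that differed in sign, at 0.43 and -0.33, and neither passed. Among smooth muscle and pericyte markers, 7 of 21 genes were above background and the same Tpm2 and Mylk probes were the ones that passed, 37.5% of the 8 probes above background. Cspg4, a pericyte surface proteoglycan, differed by -0.26 (SE 0.32). The summed intensity of the 5 probes of that list above background on all 4 arrays was 3934.3 and 4060.1 in EPC and 2773.5 and 3241.0 in EPC_acLDL. Of these sums, Tpm2 gave 802.97 and 908.479 in EPC and 434.59 and 541.252 in EPC_acLDL. The brighter Mylk probe gave 1517.16 and 1572.27 in EPC and 769.626 and 812.151 in EPC_acLDL. The rest came from Acta2, Des and Cspg4, none of which passed. Tagln and Tpm1 were at background throughout. In bulk RNA, fewer cells of a type and less RNA per cell cannot be told apart, and whether fewer contractile cells in EPC_acLDL had a part in the Tpm2 and Mylk values was not tested.

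Some actin-binding or actin-regulating genes outside every list were called, in both directions, and were picked here from the calls. Dbn1, or drebrin, which bundles actin in cell processes, read 8.31 and 7.95 in EPC and 6.66 and 6.74 in EPC_acLDL, where it was not above background. It was at least 2.58-fold lower in EPC_acLDL (adjusted p = 0.0137). Ablim3, an actin-binding LIM protein, was at least 1.91-fold lower (adjusted p = 0.0227), again without signal above background in EPC_acLDL. Each had only the 1 probe that could be tested. Pak4, a kinase that acts on actin turnover, was higher by 0.74 (adjusted p = 0.0363) and Cyrib, which restrains Rac1, by 0.69 (adjusted p = 0.0442). On the actin dynamics list, none of the 17 genes above background passed, at a median of -0.08 over 21 probes, and Tmsb10, which holds actin monomers, differed by -0.53 (adjusted p = 0.0654). Tubulins and intermediate filaments likewise held no called probe. There, 10 of 12 probes had a negative difference, and the median was -0.25. Tubb2b differed by -0.57 at its brighter probe (adjusted p = 0.0616).

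Ppp1cb, the beta catalytic subunit of protein phosphatase 1, was among the largest increases with both of its probes that were above background. This subunit is part of the myosin phosphatase, which removes the phosphate that the Mylk kinase adds. One probe read 7.46 and 7.44 in EPC and 9.24 and 9.32 in EPC_acLDL, a difference of 1.83 (SE 0.11, adjusted p = 0.000973). The other differed by 1.71 (adjusted p = 0.00917). The 2 probes thus rose by nearly the same amount, and the gene's remaining probe was at background. Under the other background and scaling settings the 2 differences were as small as 0.90 and 0.77. In EPC_Late the first probe had a mean 0.66 above that of EPC_acLDL (adjusted p = 0.00832).

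For Tpm2 and Mylk, the 250 bases before the start of transcription are shown because both genes fell, and the windows differ in the motifs found in them. They are RefSeq promoter windows of GRCm38.p6, written 5′ to 3′ on the strand of the gene, with each match to a searched motif in capitals. Tpm2 lies on the minus strand at chr4:43523555-43523804, and Mylk on the plus strand at chr16:34784700-34784949.
Tpm2: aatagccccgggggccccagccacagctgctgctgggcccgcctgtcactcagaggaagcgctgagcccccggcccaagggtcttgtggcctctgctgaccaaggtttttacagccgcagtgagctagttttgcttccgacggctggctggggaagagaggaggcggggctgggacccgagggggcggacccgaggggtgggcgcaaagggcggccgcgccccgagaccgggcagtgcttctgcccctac
Mylk: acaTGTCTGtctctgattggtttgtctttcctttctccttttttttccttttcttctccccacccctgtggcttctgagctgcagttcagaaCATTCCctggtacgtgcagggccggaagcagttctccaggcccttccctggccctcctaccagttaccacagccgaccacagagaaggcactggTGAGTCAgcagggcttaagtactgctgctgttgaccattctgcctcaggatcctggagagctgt
The search covered 300 bases, 250 before to 50 after the start, on both strands. It used the CArG box of serum response factor, GGAATG of the TEAD factors, TGANTCA of AP-1, CACGTG of the E-box, TGACGTCA of the cAMP response element, CAGACA of the Smad proteins and TCACNCCAC of the sterol element. Tpm2 held none of these. Mylk held TGANTCA 64 bases, GGAATG 158 bases and CAGACA 247 bases before the start. The CArG box was in 1.63% of all 32851 promoters and in none of the 22 lower and 29 higher genes that had a window. TGANTCA was in 7.81% of all promoters, in 4 of the 22 lower genes (Bdnf, Mylk, Tinagl1 and Zfp36l1) and in 1 of the 29 higher genes. GGAATG was in 14.7% of all promoters, in 4 of the lower and in 6 of the higher genes, and CAGACA in 21.0%, 5 and 3. CACGTG (7.15%) was in 2 lower genes and 1 higher gene, TGACGTCA (1.79%) in none and 2, and TCACNCCAC (1.24%) in 1 and none. A match is a description of letters in a window and not of a bound site.

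The called genes of secreted factors and cell-surface ligands, which are not a fixed list, included both higher and lower ones. Fst, or follistatin, which binds activins and some bone morphogenetic proteins (BMPs) and keeps them from their receptors, read 10.39 and 10.30 in EPC and 8.23 and 8.56 in EPC_acLDL. The difference was -1.95 (SE 0.18, adjusted p = 0.00548), and EPC_Late was at 8.16 on average. Around follistatin, 11 of 51 genes of the activin, BMP and TGF-beta pathway were above background and no other passed (9.09% of probes, beside 3.3% of all tested). The 7 probes above background on all 4 arrays had a median of -0.12, with 3 positive and 4 negative differences. Acvr1, an activin and BMP receptor, differed by -0.13 (adjusted p = 0.604), and the inhibitors Smad6 and Smurf1 by -0.20 (adjusted p = 0.646) and -0.12 (adjusted p = 0.822). The ligand gene Tgfb1 read 7.02 and 6.06 in EPC and 7.53 and 7.70 in EPC_acLDL, a difference of 1.08 that missed the threshold with its spread in EPC (SE 0.34, adjusted p = 0.156). Ltbp2, a matrix protein of the latent TGF-beta binding protein family, differed by 0.69 (adjusted p = 0.0845). Bmp4, a BMP ligand, differed by 0.47 (adjusted p = 0.1) and Acvr2b, an activin receptor, by 0.50 (adjusted p = 0.0654). Inhba, which encodes the activin A subunit, was not above background.

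Among ephrins, which signal through Eph receptors on touching cells, one rose and one fell, and the call of the latter ended under the other scalings. Efnb1 read 9.71 and 9.88 in EPC and 11.56 and 11.58 in EPC_acLDL, a difference of 1.77 (SE 0.12, adjusted p = 0.00143). Efna5 read 9.41 and 9.43 in EPC and 8.61 and 8.33 in EPC_acLDL, a difference of -0.95 (SE 0.16, adjusted p = 0.0373). The lines were ordered differently for these ligands. Efnb1 was high in EPC_acLDL alone, with EPC_Late at 9.79 and 1.78 below EPC_acLDL (adjusted p = 0.00054), and Efna5 in EPC_Late was lower again, at a mean of 7.49. Efnb2, the ephrin of arterial endothelium, differed by 0.16 and did not pass.

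Nrg1, a growth factor of the EGF family for ErbB receptors, read 7.995 and 8.056 in EPC and 9.34 and 9.03 in EPC_acLDL (difference 1.16, SE 0.14, adjusted p = 0.0131). Like Efnb1 it was lower in EPC_Late, at a mean of 7.62, which was 1.56 below EPC_acLDL (adjusted p = 0.000925). Bdnf, a neurotrophin, read 9.57 and 9.91 in EPC and 8.67 and 8.80 in EPC_acLDL (difference -1.01, SE 0.17, adjusted p = 0.0363). Its level in EPC_Late was back near that of EPC, at 9.58. Of 85 growth factor and receptor genes 9 were above background, and Efnb1 and Bdnf were those that passed (22.2% of the 9 probes, beside 3.3% of all tested), while Nrg1 is not on that list. Igfbp2, a binding protein of insulin-like growth factors, read 7.36 and 7.73 in EPC and 8.50 and 8.26 in EPC_acLDL and fell just short (difference 0.84, adjusted p = 0.0569).

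Sema7a, a membrane-anchored semaphorin, and Plxna2, a receptor for other semaphorins, were both lower. Sema7a was not above background in EPC_acLDL and was at least 1.28-fold lower there (adjusted p = 0.0137). Plxna2 read 11.03 and 10.81 in EPC and 9.86 and 9.87 in EPC_acLDL (difference -1.06, SE 0.13, adjusted p = 0.0131). Tinagl1, a matricellular protein of basement membranes, read 8.02 and 8.45 in EPC and 6.90 and 6.16 in EPC_acLDL, where 1 of the 2 arrays was above background. Its difference of -1.70 had the widest error of the genes named as called (SE 0.26, adjusted p = 0.0289). Under the other background and scaling settings it was as small as -0.62. No gene of the matrix list passed. Of 102 on the array 11 were above background, with a median of 0.15 over 11 probes. Sparc, a matrix protein of mesenchymal cells, read 10.74 and 10.56 in EPC and 11.21 and 11.24 in EPC_acLDL (difference 0.57, adjusted p = 0.0652). Among 35 fibroblast and mesenchymal markers 6 were above background and none passed. Twist1, a mesenchymal transcription factor, differed by -0.31 (adjusted p = 0.268).

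The genes nearest to the selection itself showed little. Of 40 receptors and carriers of native or modified lipoproteins 4 were above background and none passed. Lrp8, a receptor of apolipoprotein E, read 8.65 and 8.57 in EPC and 8.82 and 8.91 in EPC_acLDL at its brighter probe (difference 0.26, SE 0.12, adjusted p = 0.31). Lrp2, or megalin, differed by 0.06 (SE 0.14), Lrp12 by -0.01 (SE 0.18), and Hdlbp, a protein that binds HDL and RNA, by -0.16 (SE 0.11) and -0.50 (SE 0.16) at its 2 probes, with no adjusted p below 0.158. The scavenger receptor genes Scarb1, Msr1, Cd36, Stab1 and Stab2 were not above background on any of the 4 arrays, so the arrays do not show whether the sort changed them. Of 84 endocytosis and lysosome genes 16 were above background, none passed, and the median over 15 probes was -0.09.

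In sterol and fatty acid synthesis 1 of 7 genes above background passed, or 12.5% of probes beside 3.3% of all tested. Cyp51, the sterol demethylase of cholesterol synthesis, read 8.61 and 8.67 in EPC and 9.48 and 9.53 in EPC_acLDL (difference 0.86, SE 0.11, adjusted p = 0.0155), and EPC_Late lay 0.56 below EPC_acLDL (adjusted p = 0.0159). The other 6 probes of the list above background on all 4 arrays had negative differences. Fdps, an enzyme earlier in the same pathway, differed by -0.17, Insig1, which senses sterols, by -0.15, and Acss2, which makes acetyl-CoA from acetate, by -0.53 (adjusted p = 0.13). None of these passed.

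The endothelial label could be checked only in part. Of 53 endothelial markers 6 were above background and none passed. Kdr, which encodes the VEGF receptor Flk-1 used in the sort of EPC, read 7.96 and 7.85 in EPC and 7.90 and 7.89 in EPC_acLDL (difference -0.01, SE 0.13, adjusted p = 0.974), values that overlap. The gene of c-Kit, the other protein selected for in that sort, was not among the genes chosen. Cd93 differed by 0.05, Angpt2 by -0.03, Flt4 by 0.24 (adjusted p = 0.334) and Ets1 by -0.37 (adjusted p = 0.254). Mcam, also a pericyte marker, was above background on both EPC_acLDL arrays and neither EPC array and did not pass (adjusted p = 0.127). Pecam1, Cdh5, Tek, Tie1, Vwf, Eng and Cd34 were not above background on any of the 4 arrays. The summed intensity of the 5 endothelial probes above background on all 4 arrays was 2476.8 and 2540.3 in EPC and 2607.7 and 2739.8 in EPC_acLDL.

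Blood cell markers gave no call either. Of 44, 4 were above background. Ptprc, which encodes CD45, was not among them, Csf1r differed by 0.06 and Spi1 by -0.83 (adjusted p = 0.0948). The summed intensity of the 3 probes above background on all 4 arrays was 1536.9 and 1656.3 in EPC and 1543.6 and 1762.2 in EPC_acLDL, ranges that overlap. Of 12 mesothelial markers Upk3b alone was above background, and it differed by 0.06.

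**Figure D3:**
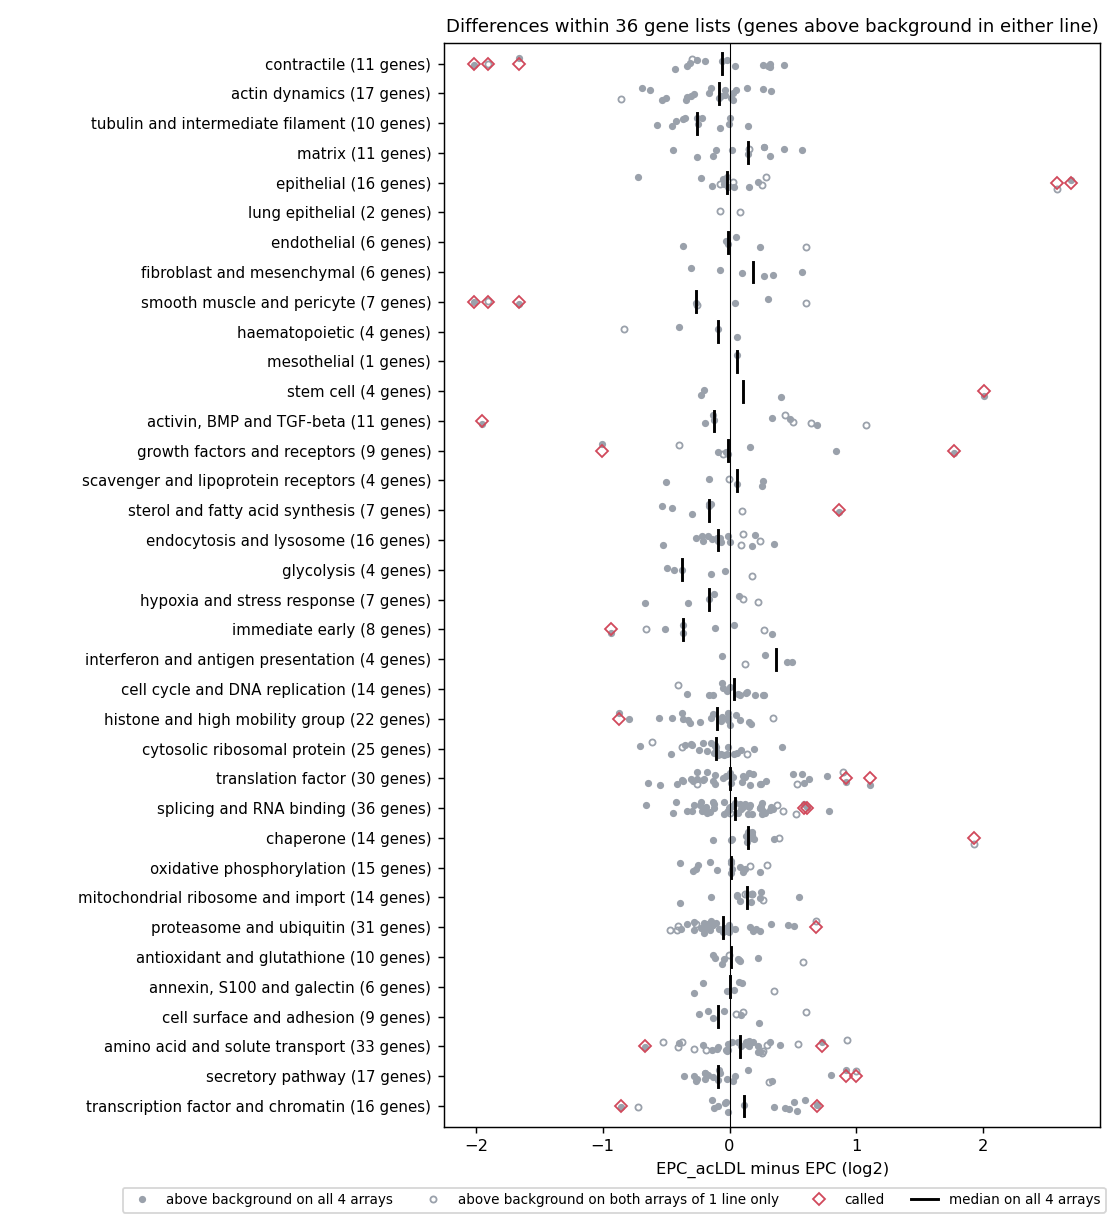
Each row is a list of genes, with the number of its genes above background in either line in brackets, and the x axis is the difference EPC_acLDL minus EPC on the log2 scale. Filled points are probes above background on all 4 arrays, open points those above background on both arrays of 1 line only, red diamonds the called probes, and black bars the medians of the filled points. The medians lie between -0.38 and 0.37. The diamonds of Cadm1, Tgm5, Sox2, Tpm2 and Fst lie far from them, while in lists such as splicing and transport called probes lie among probes that did not pass.

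Several transcription factors were called besides Sox2. Scx, or scleraxis, which marks tendon and related connective tissue, read 7.17 and 6.97 in EPC and 8.28 and 8.08 in EPC_acLDL (difference 1.11, SE 0.13, adjusted p = 0.0131), and EPC_Late was 1.19 higher again (adjusted p = 0.00208). Zfp219, a zinc finger protein, was higher by 1.01 (adjusted p = 0.0279) and Tcf4, a basic helix-loop-helix factor, by 0.69 (adjusted p = 0.0429). Irx3, an Iroquois homeobox factor, read 9.50 and 9.47 in EPC and 8.62 and 8.64 in EPC_acLDL (difference -0.86, SE 0.11, adjusted p = 0.0137). EPC_Late had the level of EPC for Irx3, at 9.50. Of the 16 listed factors above background, Tcf4 and Irx3 were the ones that passed, 12.5% of 16 probes beside 3.3% of all tested. Hoxa5 and Hoxb5 differed by 0.60 (adjusted p = 0.0654) and -0.72 (adjusted p = 0.0787).

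Zfp36l1, an RNA-binding protein that speeds the decay of AU-rich transcripts, was the called member of the immediate early list. It read 9.62 and 9.72 in EPC and 8.77 and 8.71 in EPC_acLDL (difference -0.93, SE 0.11, adjusted p = 0.0131), and EPC_Late was 1.19 above EPC_acLDL (adjusted p = 0.00111). A second Zfp36l1 probe differed by -0.51 (adjusted p = 0.104). In that list 8 of 32 genes were above background, 1 of 9 probes was called (11.1%, beside 3.3% of all tested), and the median over 7 probes was -0.36. Egr1, a growth-induced zinc finger factor, was not above background in EPC_acLDL and did not pass (adjusted p = 0.0875), and Srf, the serum response factor, differed by -0.36 (adjusted p = 0.217).

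Dnajc15, a mitochondrial J-domain co-chaperone, read 5.97 and 6.06 in EPC, not above background, and 8.02 and 7.87 in EPC_acLDL, at least 2.15-fold higher (adjusted p = 0.00143). In EPC_Late it was at 10.14 on average, 2.20 above EPC_acLDL (adjusted p = 0.000383). The other 13 chaperone genes above background did not pass, so 7.14% of the list's probes were called, beside 3.3% of all tested. Of the 11 chaperone probes above background on all 4 arrays, 10 had a positive difference, with a median of 0.15, a highest value of 0.35 for Tcp1, and none that passed.

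Energy and transport genes supplied a few calls. Ckb, the brain-type creatine kinase that buffers ATP, was higher and bright, at 13.00 and 13.14 in EPC and 14.22 and 14.35 in EPC_acLDL (difference 1.22, SE 0.12, adjusted p = 0.00872). Slc38a2, an amino acid transporter induced when amino acids are scarce, was higher by 0.73 (adjusted p = 0.0442), but its other probes differed by -0.01 and 0.24. Slc12a9, a cation-chloride transporter relative, was lower by 0.67 (log2 difference -0.67, adjusted p = 0.0484), a call that ended under the other scalings. These were the called ones of 33 solute carrier genes above background, or 5.71% of probes beside 3.3% of all tested. No glycolysis gene passed. All 5 glycolysis probes on all 4 arrays had a negative difference, with a median of -0.38, and Pfkp, a phosphofructokinase, differed by -0.50 (adjusted p = 0.0904). Oxidative phosphorylation (15 genes, median 0.01), mitochondrial ribosome and import (14 genes, median 0.14) and antioxidant genes (10 genes, median 0.01) held no call.

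Translation and RNA processing gave a few calls. Ybx3, a cold shock domain protein that binds RNA and DNA, read 7.02 and 7.15 in EPC and 8.10 and 8.29 in EPC_acLDL (difference 1.11, SE 0.13, adjusted p = 0.0115), and its second probe differed by 0.57 (adjusted p = 0.0654). Pabpc1, the poly(A)-binding protein, was higher by 0.92 (adjusted p = 0.0289), with a second probe at 0.90 (adjusted p = 0.159). The splicing factor Srsf5 was higher by 0.61 (adjusted p = 0.0442) and Hnrnpa2b1, an RNA-packaging protein, by 0.58 (adjusted p = 0.045), the smallest difference called. Hnrnpa2b1 and Srsf5 were bright, at 14.53 and 12.21 in EPC on average. The calls were 2 of 30 translation factor genes and 2 of 36 splicing genes above background, or 5.13% and 3.92% of their probes beside 3.3% of all probes tested. Outside these lists, Celf1, an RNA-binding regulator of splicing and decay, was higher by 0.73 (adjusted p = 0.0289), with other probes at 0.35, 0.44 and 0.16 that did not pass. The splicing factor Rbfox2 was lower (difference -0.61, adjusted p = 0.0429), and so was Rars2, the mitochondrial arginyl-tRNA synthetase (difference -0.68, adjusted p = 0.0373), but both calls ended under the other scalings and with any of the 4 arrays left out. The calls of Srsf5, Hnrnpa2b1 and Celf1 also ended with any of the 4 arrays left out. The 25 cytosolic ribosomal protein genes above background gave none, with 19 negative and 5 positive differences over 24 probes and a median of -0.11.

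In the secretory pathway, Rab6a, a GTPase of Golgi traffic, was higher by 0.99 (adjusted p = 0.0304) and Golga7, which helps to attach palmitate to Ras proteins, by 0.92 (adjusted p = 0.0244), as 2 of 17 genes above background, or 9.52% of the list's probes beside 3.3% of all probes tested. Another Rab6a probe differed by -0.36 (adjusted p = 0.314), so its probes did not move together. Outside the list, Copz2, a subunit of the coatomer coat of Golgi vesicles, was lower (difference -0.71, adjusted p = 0.0485), with another probe at -0.14 and no call under the other scalings. Rnf167, a ubiquitin ligase of lysosomal membranes, was higher with both of its probes that were above background, by 1.01 (adjusted p = 0.0131) and 0.86. Lypla1, which removes palmitate from proteins, was at least 1.70-fold higher (adjusted p = 0.049).

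No gene of the cell cycle list passed. Of 108 on the array 14 were above background, and the differences ran from -0.34 to 0.27 with a median of 0.04 over the 14 probes above background on all 4 arrays. E2f1, which drives entry into S phase, differed by 0.20 (SE 0.11, adjusted p = 0.354) and Tyms, which makes thymidylate, by 0.14 (SE 0.12). The following genes lie outside the list. Espl1, or separase, which parts sister chromatids, was at least 1.47-fold lower, without signal above background in EPC_acLDL (adjusted p = 0.0482), a call that ended under the other scalings. Pole3, a subunit of DNA polymerase epsilon, was higher by 0.69 (adjusted p = 0.0467), and Hbp1, a repressor of cell cycle genes, was at least 1.11-fold higher (adjusted p = 0.029), with no EPC array above background. Shcbp1, which takes part in cell division, was at least 1.30-fold higher (adjusted p = 0.0429), also with no EPC array above background. One histone gene fell: H2bc7 (Hist1h2bf in the file) read 10.06 and 9.96 in EPC and 9.12 and 9.14 in EPC_acLDL (difference -0.87, SE 0.11, adjusted p = 0.0137). The H2B genes are nearly identical, so which copies this probe reads is uncertain. H2bc9 and H2bc11, of the same family, differed by -0.80 (adjusted p = 0.0904) and -0.46 (adjusted p = 0.153). Of the 23 histone and high mobility group probes 4.35% were called, beside 3.3% of all tested, and the median of 22 was -0.10.

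Hypoxia and stress response genes (7 genes, median -0.16), interferon and antigen presentation genes (4 genes, median 0.37), annexin, S100 and galectin genes (6 genes, median 0.01) and other cell surface and adhesion genes (9 genes, median -0.09) held no called probe. The interferon median rested on 4 probes, with Ifitm2, an interferon-induced membrane protein, at 0.49 (adjusted p = 0.088) the 2 probes of the transcription factor Irf1 at 0.46 and 0.28, and Tapbp, which helps to load peptides for antigen presentation, at -0.06.

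Most called probes lay outside every list, 53 of 77. This was 3.11% of the 1702 probes in no list against 4.78% of the 502 in a list, and the lists were chosen with earlier results known. Among the largest were Syngr1, a synaptic vesicle protein, at 9.35 and 9.03 in EPC and 7.80 and 7.49 in EPC_acLDL (difference -1.55, SE 0.17, adjusted p = 0.0107). Under the other background and scaling settings this difference was as small as -0.77. A second Syngr1 probe above background differed by 0.13. EPC_Late was again close to EPC for Syngr1, at a mean of 8.98. 5730410E15Rik, a transcript without a named product, was higher with both of its probes, by 1.61 (adjusted p = 0.00143) and 1.59. Predicted loci known only by number were lower: LOC100044221 by 1.80 (difference -1.80, SE 0.13, adjusted p = 0.00164), LOC100046255 by 1.05 (difference -1.05, adjusted p = 0.0373), and LOC100048046 by at least 1.31-fold (adjusted p = 0.0172). For 46 of the 73 called genes the array had more than 1 probe. In 4 of them 2 probes were called. Of 22 other probes of called genes that were tested and did not pass, 16 had the direction of the called probe and 6 the opposite, and 69 were not above background.

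The 77 calls leaned on single arrays to different degrees. When each of the 4 arrays was left out in turn, 9 probes were called in all 4 fits, and 53 were called in none of them, while all 77 kept their sign. The 9 were Cadm1, Tgm5, Sox2, Dnajc15, Efnb1, LOC100044221 and 1 probe each of Ppp1cb, 5730410E15Rik and Mylk. Tpm2 ranged from -2.34 to -1.70 and lost its call without EPC replicate 1, EPC replicate 2 or EPC_acLDL replicate 1, with an adjusted p of up to 0.0615. Fst ranged from -2.11 to -1.78 and lost its call without replicate 1 of either line, with an adjusted p of up to 0.067. The dimmer Mylk probe lost its call without either EPC_acLDL array, with an adjusted p of up to 0.0974. Nrg1, Scx, Irx3, Bdnf, Efna5, Zfp36l1, Tinagl1 and Cyp51 were called in none of those fits. The same held for Zfp219, Tcf4, Rab6a, Golga7, Pak4, Cyrib, Slc38a2, Slc12a9, Copz2, Pole3, Hbp1, Shcbp1, Espl1, H2bc7, LOC100046255 and LOC100048046.

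**Figure D4:**
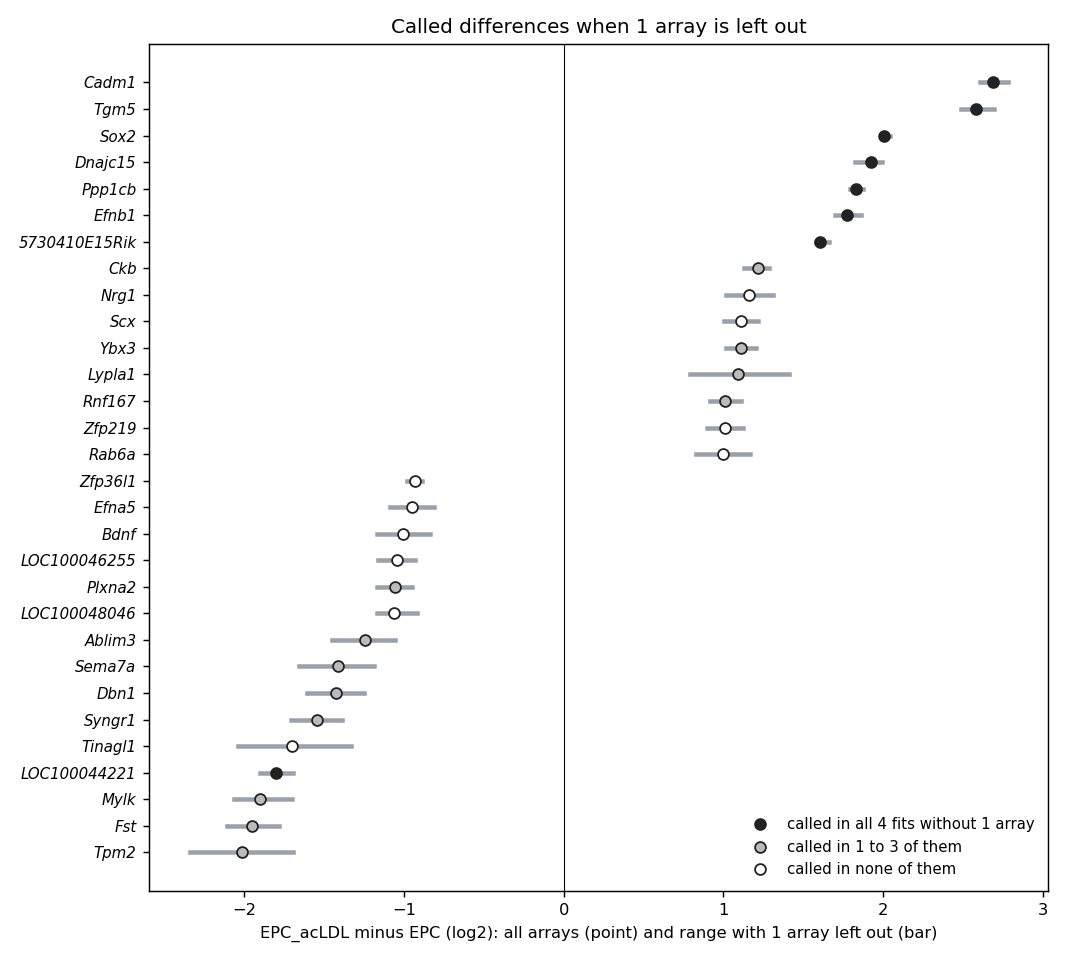
Log2 difference EPC_acLDL minus EPC for the same 30 genes as in the plot of values by array, with all arrays (points) and the range over the 4 fits that leave out 1 array of these lines (bars). Black points were called in all 4 of those fits, grey points in 1 to 3 and white points in none. For Mylk the dimmer probe is drawn. No bar reaches 0.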

How the data were processed

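RNA of 3 mouse cell lines was measured on 6 MouseRef-8 v2.0 arrays, 2 per line, all on one chip. Bead values were averaged per probe by the authors after local background correction, and the deposited intensity is linear and not normalized. The deposited detection p-value beside each intensity ranks it among the negative controls of that array. The genome build of the probes is not given in the sources used here.

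Analysis was done with limma 3.58.1 in R 4.3.3. Background estimated from the detection p-values was removed by neqc, with an offset of 16 and quantile normalization of log2 values. Tests covered the 2333 of 25697 probes that were above background (detection p-value under 0.05) on each array of 1 or more lines, with lmFit and eBayes on all 6 arrays without covariates (3 residual degrees of freedom), with Benjamini-Hochberg adjustment over all of them. A probe was called at an adjusted p below 0.05. Probes described are those above background in EPC or EPC_acLDL. For a line without signal above background the fold is a bound: per array, the dimmer line was given its own signal or, if higher, the lowest signal of any probe above background. Of 18138 gene names in the file, 14309 matched a symbol and 2885 a synonym of a mouse gene table, and 944 were kept.

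Genes and the 36 gene lists were chosen with earlier results of these data known. Named were the 15 largest fitted increases and the 15 largest fitted decreases among called probes without overlap, 1 probe a gene. Also named were Sox2, the genes of the stained surface proteins Flk-1, CD31 and CD45 (not of c-Kit), called list members and lipoprotein receptors. Lists without a call gave up to 3 of their brightest members. Genes named beyond this rule (Tgfb1, Igfbp2, Cldn7, Spi1, Egr1, Hoxa5, Espl1, Pole3, Hbp1, Celf1, Rbfox2, Rars2, Copz2, Pak4, Cyrib, Shcbp1, second probes and other list members that did not pass) were chosen after their values were seen. Some results that the rule would name are not reported here. Same-numbered arrays did not deviate together (correlations of 0.079, 0.021 and 0.032), so they were not treated as pairs. Alternatives covered background, scaling, filters, arrays, replicate block, variance model and test. These steps were also run on artificial intensities, with noise drawn separately for each array and changes of 2-fold or more given to known probes. There, 92.3% of 194 changed probes were found among 2319 tested for EPC_acLDL against EPC, and 5.8% of the 190 calls were of unchanged probes. Smaller changes were not tried. Most calls of this report had a fitted change below 2-fold, so these shares do not cover them.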

Additional observations from a re-analysis of the deposited data

How the results depend on the processing

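The 77 calls kept their sign under every setting in which arrays were left out or rescaled, and 66 were called under all 4 other background and scaling settings. The other 11, all lower in EPC_acLDL, were lost with the shift to the 75th percentile and without normalization. Sizes moved more than signs: the fold of 21 called probes shrank by over 1.5 times without background correction and that of 5 with a normexp offset of 50. The count itself moved: 164 with a normexp offset of 50, 273 without background correction, 138 with a shift to the 75th percentile, 285 without normalization between arrays, 50 without a detection filter, 173 with a detection p-value below 0.01, 281 with robust limma-trend, 39 with only the 4 arrays of these lines and 30 with a 2-fold criterion added. The methods' t-test passed 355 probes unadjusted, 73 of them among the 77, and 1 after Benjamini-Hochberg adjustment, which was not among the 77. With 1 array left out the count ran from 9 to 36. It was 11 when EPC replicate 1 was dropped and 23 for EPC replicate 2, 9 for EPC_acLDL replicate 1 and 11 for its replicate 2, and 36 for each EPC_Late array; these fits give a line with 1 array the spread of the rest. With the replicate block 43 probes were called, 41 of them among the 77. The arrays share only a number, and the cause of the other shifts was not tested. The share of calls that were higher was 58.4% (41.6% if the direction is turned, as the study has it for some genes), but 82.6% (17.4%) with the shift to the 75th percentile and 91.6% (8.4%) without normalization, where the median of all probes tested moved from 0.008 to 0.165 and 0.251. The signal over background limits the rest: 988 of 2204 probes had a detection p-value below 0.01 on all 4 arrays, and these held 44 of the 77 calls. Of 101 named probes, none changed sign with a call in either fit, and sign changes without a call were not counted.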
